A study of Homo sapiens with 4 samples.

Results

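The noncoding host genes of small nucleolar RNAs (snoRNAs) were taken as the genes of GENCODE biotype lncRNA whose symbol is SNHG followed by a number, together with GAS5 and ZFAS1. They were found by symbol in the annotation and matched by gene ID to the count tables, which gave 30 of the 58884 genes listed. RNA sequencing was done on 4 libraries of HCT116, a human colorectal carcinoma cell line: 2 libraries labelled RALY_KD and 2 labelled WT, called RALY knockdown and control here. RALY, an hnRNP protein, binds RNA and is related to HNRNPC. Per the labels' protocols, lentivirus with a hairpin against RALY or a nonsilencing hairpin was given with 10 µg/ml of polybrene (spelled polyprene in the label) for 72 h, while other labels call the control cells untreated, so it is not settled whether the controls carried the nonsilencing hairpin. The source label numbers the cell line differently between the libraries of each group, whereas the cell line field reads HCT-116 in all 4; the sources used here do not give the hairpin sequence. Whether a group's libraries came from separate cultures is not labelled, so every p-value below reflects the spread among these 4 libraries alone, and that spread may be technical.

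A snoRNA host gene is transcribed and spliced like a messenger RNA gene, and the snoRNAs are trimmed out of its excised introns. Box C/D snoRNAs (symbols SNORD) guide methylation and box H/ACA snoRNAs (symbols SNORA) guide pseudouridylation of ribosomal RNA, a few of each kind act in ribosomal RNA cleavage, and the related small Cajal body RNAs (symbols SCARNA) act on spliceosomal RNAs. In the noncoding hosts the spliced exons have no long reading frame; for several of them, GAS5 being the best known, the spliced RNA starts with a terminal oligopyrimidine tract, is bound by ribosomes and is degraded by nonsense-mediated decay, so that it accumulates when translation or cell growth is arrested.

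The transcription starts of the genes that rose after RALY knockdown are shown first, because a pyrimidine run at the start is the feature that host genes are best known to share. Of the 30 genes, 26 had an entry in the RefSeq promoter table for GRCh38.p14. The 50 bases from 20 before to 30 after the RefSeq start were searched on the transcript's strand only for CTTTT or CTTTC, which cannot begin at the same base, and matches are in capitals. These letters were chosen after the windows had been read.
SNHG26 (chr7:22854220-22854269, plus strand): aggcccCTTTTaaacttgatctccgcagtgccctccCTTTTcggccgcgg
SNHG32 (chr6:31834896-31834945, plus strand): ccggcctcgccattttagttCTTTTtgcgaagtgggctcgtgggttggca
SNHG4 (chr5:139274081-139274130, plus strand): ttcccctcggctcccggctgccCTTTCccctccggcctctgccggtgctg
SNHG12 (chr1:28581844-28581893, minus strand): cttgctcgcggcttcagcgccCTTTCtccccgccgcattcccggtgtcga
SNHG3 (chr1:28505923-28505972, plus strand): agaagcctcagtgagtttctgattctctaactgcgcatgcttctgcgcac
SNHG11 (chr20:38446634-38446683, plus strand): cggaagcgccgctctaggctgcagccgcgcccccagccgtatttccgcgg
SNHG7 (chr9:136728155-136728204, minus strand): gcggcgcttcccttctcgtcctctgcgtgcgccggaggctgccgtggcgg
CTTTT or CTTTC was found in 4 of these 7 windows (57.1%) and in 7 of 14 windows (50.0%) of hosts that were tested and not called. A match could lie anywhere in the window, before or after the start. Pyrimidine runs of other letters, such as the one before the start in SNHG7, were not counted. A match was in 11 of the 26 host windows (42.3%), against 4007 of 35116 windows (11.4%) over all entries of the table. The RefSeq start need not be the start used in these cells; for GAS5, and for SNHG3 in the window printed above, it lies upstream of the gene span in the deposited tables, and the window of SNHG3 reaches the start of the overlapping gene RCC1. A match describes these letters only.

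Library totals lay between 13360007 and 16847520 counts, which puts the floor for a gene without a count, 3 counts, at 0.178 to 0.225 CPM (counts per 1e+06, with totals scaled by the TMM method in all CPM given for genes). RALY had 39.6 and 35.1 CPM in the knockdown libraries, against 144 and 123 CPM in the controls, and was 0.279-fold of control (log2 fold change -1.84, SE 0.127, adjusted p = 6.593e-06 with edgeR's quasi-likelihood test). The epithelial marker EPCAM averaged 113 ± 0.179 CPM in the knockdown and 124 ± 16.3 CPM in the control (SD, n = 2 each), and 0 of 5 epithelial markers were called. Of the markers of other cell types, 2 of 5 leukocyte, 1 of 5 fibroblast and 3 of 5 endothelial genes had enough counts to be tested. Of these, 0 were called (edgeR), and 2, 1 and 1 had an unadjusted p under 0.05. Over all 19686 genes tested, 7524 had an unadjusted p that low. PTPRC, the leukocyte surface marker, had 9 and 3 counts in the knockdown libraries, against 1 and 4 counts in the controls. The part of these markers in the results below was not tested. The fibroblast gene was COL1A1, at 95.5 ± 21.1 CPM in the knockdown and 121 ± 13.8 CPM in the control. In bulk RNA, a change in the number of cells and a change in RNA per cell cannot be told apart.

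Of the 30 host genes, 27 had enough counts to be tested. SNHG3, SNHG4, SNHG7, SNHG11, SNHG12, SNHG26 and SNHG32 rose after RALY knockdown at an adjusted p under 0.05, by between 1.28-fold (SNHG12) and 1.70-fold (SNHG26), and SNHG28 and SNHG31, a pair of genes with few counts, fell. The 7 that rose are 25.9% of the tested hosts, where 12.5% of all 19686 genes tested were called higher; the 2 that fell are 7.41%, where 13.1% of all genes were called lower. The median log2 fold change of the 27 hosts was 0.25, against 0.01 over all genes tested and 0.05 over the other 2874 tested lncRNA genes, of which 11.2% were called higher. In 20 of 27 hosts the log2 fold change was above 0. In 15 hosts both knockdown libraries lay above both controls and in 3 both lay below, where 32.3% and 31.3% of all genes tested did so (63.6% in either direction). In all, 9 of 27 hosts were called, where 25.6% of all genes were.

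Of the 18 hosts with a mean of at least 20 CPM, 7 were called higher and 0 lower. Over all 10946 genes at that level, 13.2% were called higher and 15.4% lower. An unadjusted p under 0.05 (edgeR) was found for 8 of the 18 hosts, where 4510 of the 10946 genes had one. Of the 9 tested hosts under 20 CPM, 0 were called higher and 2 lower. Summed over the 30 genes, the hosts had 1814 and 1802 CPM in the knockdown libraries, against 1641 and 1400 CPM in the controls, so that the groups did not overlap in the sum.

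**Figure D1:**
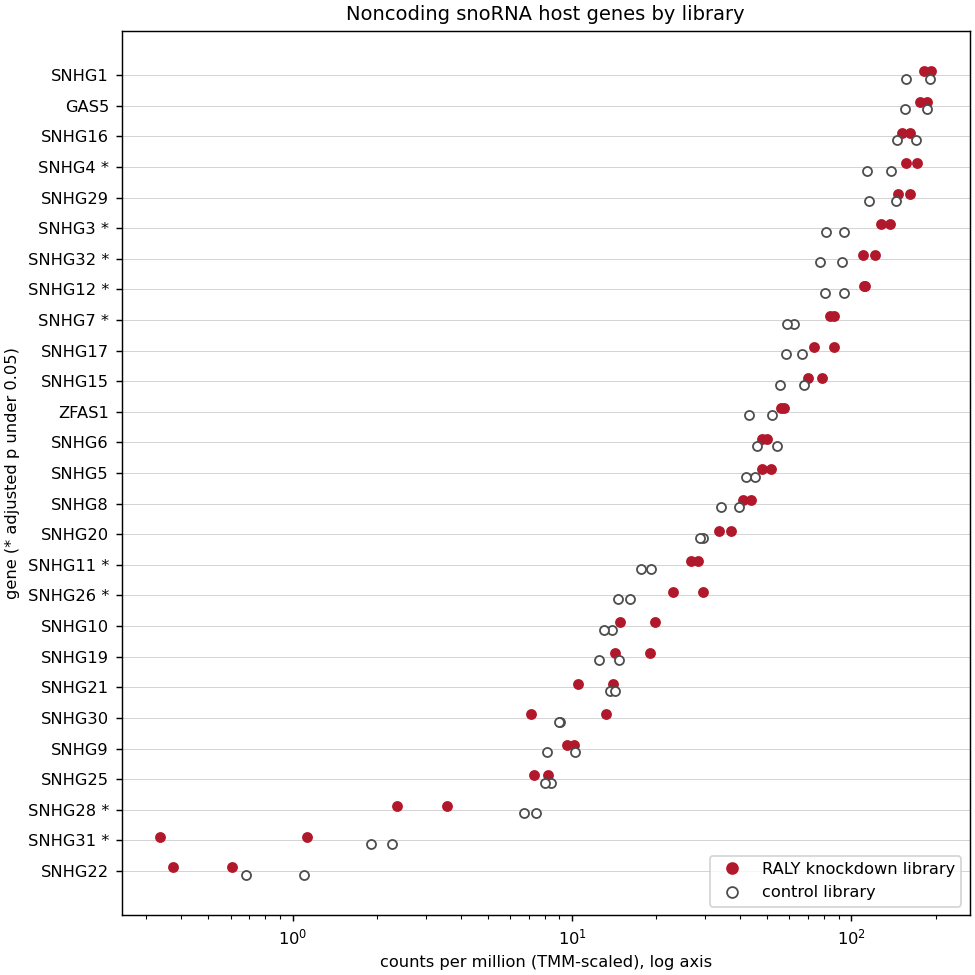
TMM-scaled CPM on a log axis for the 27 tested noncoding snoRNA hosts, 1 row per gene from the highest to the lowest mean, with filled points for the 2 RALY knockdown libraries and open points for the 2 control libraries; stars mark an adjusted p under 0.05. The filled points of the 7 genes that rose lie right of both open points, while those of SNHG16 lie between its open points and those of SNHG1 and GAS5 overlap theirs.

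**Figure D2:**
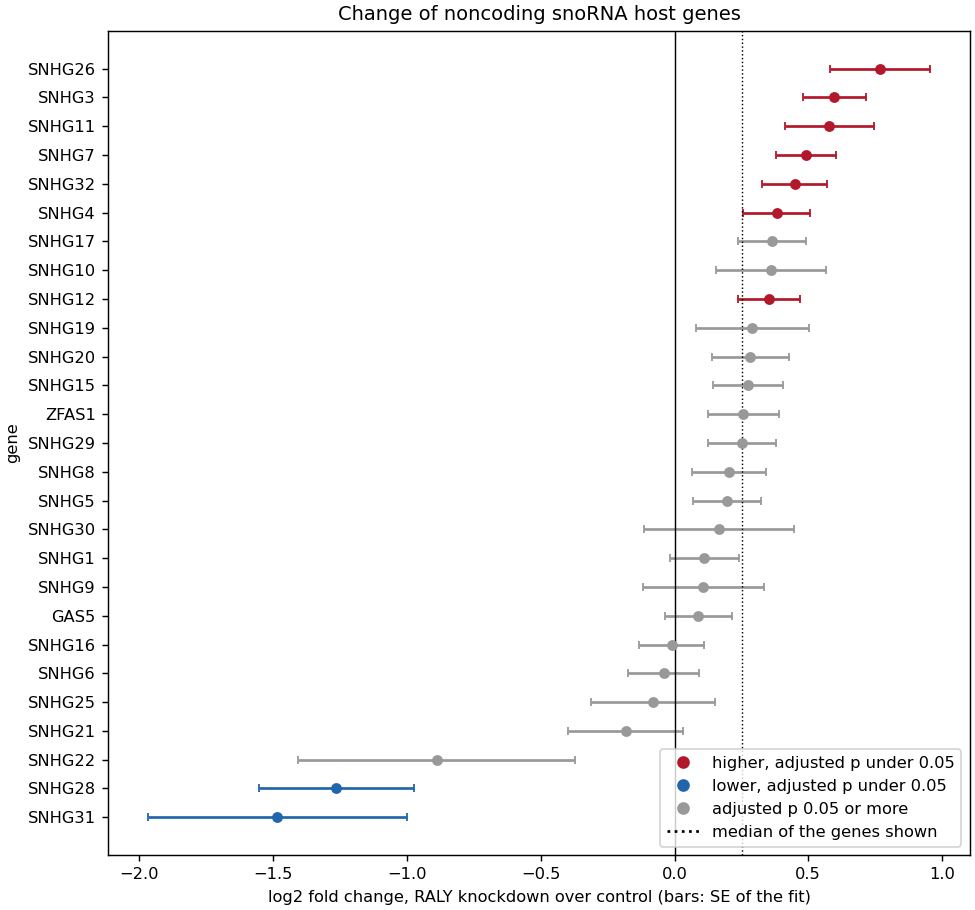
Log2 fold change of RALY knockdown over control for the 27 tested hosts, with bars of 1 SE of the fit and a dotted line at their median of 0.25. SNHG26 is highest at 0.77 and SNHG31 lowest at -1.48, and the genes with few counts have the widest bars.

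Grouped by the kind of snoRNA gene lying within them on the same strand, a grouping made after the values had been seen, the hosts of H/ACA snoRNAs alone held 4 of the 7 that rose and 1 of the 2 that fell (SNHG31) among 9 tested, with a median log2 fold change of 0.36; over all genes 12.5% were called higher and 13.1% lower. SNHG3 holds SNORA73A and SNORA73B, which belong to the H/ACA snoRNAs acting in ribosomal RNA cleavage. It had 127 and 138 CPM in the knockdown libraries, against 94.3 and 81.0 CPM in the controls. Both knockdown libraries lay above both controls, and the gene was 1.51-fold higher (log2 fold change 0.60, SE 0.118, adjusted p = 0.00344, edgeR). SNHG3 spans chr1:28505980-28510892 on the plus strand, overlapping RCC1, a nuclear exchange factor for the GTPase RAN, in 5.92% of its exon bases, and RCC1 itself had a log2 fold change of 0.03 (adjusted p = 0.873). SNHG7, at chr9:136721366-136728184 on the minus strand, holds SNORA17A and SNORA17B. It had 83.6 and 86.7 CPM in the knockdown libraries, against 62.5 and 58.8 CPM in the controls. The groups were well apart for SNHG7, with a log2 fold change of 0.49 (SE 0.113, adjusted p = 0.0079). DIPK1B, on the opposite strand, shares 27.1% of its exon bases and had a log2 fold change of 0.19 (adjusted p = 0.307); the sources used here do not say whether strand was used in counting.

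SNHG11 and SNHG4 completed the H/ACA hosts that rose. SNHG11, at chr20:38446578-38450921 on the plus strand, holds SNORA60 and SNORA71E and lies beside SNHG17, which holds other SNORA71 copies. It had 28.3 and 26.6 CPM in the knockdown libraries, against 19.2 and 17.6 CPM in the controls, again without overlap. Its log2 fold change was 0.58 (SE 0.167, adjusted p = 0.0237, edgeR). SNHG4, at chr5:139274102-139284899 on the plus strand, holds SNORA74A and SNORA74D and shares 14.0% of its exon bases with MATR3, which encodes the nuclear matrix protein matrin. It had 172 and 157 CPM in the knockdown libraries, against 139 and 114 CPM in the controls. SNHG4 was 1.30-fold higher (log2 fold change 0.38, SE 0.126, adjusted p = 0.0422), a call lost without knockdown 1 (0.29, adjusted p = 0.0852), and MATR3 had a log2 fold change of 0.23 (adjusted p = 0.245).

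Among the 10 tested hosts in which C/D snoRNA genes alone were matched, 2 rose and the median log2 fold change was 0.22. GAS5, SNHG27 and SNHG28, in which no snoRNA gene was matched, are in none of these groups. The counts and medians by kind of snoRNA therefore leave out GAS5. SNHG26, at chr7:22854178-22861579 on the plus strand and the host of SNORD93, shares no exon bases with another gene. It had 29.3 and 23.1 CPM in the knockdown libraries, against 14.6 and 16.1 CPM in the controls. Its log2 fold change of 0.77 (SE 0.187, adjusted p = 0.0107, edgeR) was the largest rise of the family. SNHG32, at chr6:31834608-31839766 on the plus strand, holds SNORD48 and SNORD52 and had the highest level per length of the family, 64.0 CPM per kb of exon in the knockdown and 46.9 in the control. It had 109.7 and 121 CPM in the knockdown libraries, against 92.2 and 76.9 CPM in the controls, without overlap. SNHG32 was 1.37-fold higher (log2 fold change 0.45, SE 0.122, adjusted p = 0.0179). Another gene on the same strand, ENSG00000285565, covers 23.2% of its exon bases and had a log2 fold change of 0.23 (adjusted p = 0.21). SNHG12, which holds both kinds of snoRNA (among them SNORA44, SNORA61 and SNORD99) at chr1:28578538-28583132 on the minus strand, had 112 and 111 CPM in the knockdown libraries, against 94.4 and 80.6 CPM in the controls. It had the smallest rise that was called, a log2 fold change of 0.35 (SE 0.116, adjusted p = 0.0417).

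The deposited counts themselves, before any scaling, were higher in both knockdown libraries than in either control for each of the 7 hosts that rose, although control 2 was the deepest library. These 7 were picked by calls on the same counts, so this describes them and adds no separate evidence. The calls rest on both controls: without control 1 only SNHG3 was called higher (adjusted p = 0.0367), and without control 2 none was, with log2 fold changes of the 7 between 0.43 and 0.67 and between 0.23 and 0.83 in these fits. With 1 control left, that library is assumed to vary like the others. Most calls over all genes tested were lost in these fits too, so the loss is not particular to the hosts. When a rise of more than 1.2-fold was tested for, SNHG3 and SNHG26 were called higher.

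The 2 hosts that fell had few counts, and in SNHG28, a host here by its symbol, no snoRNA gene was matched. SNHG28 had 38 and 53 counts in the knockdown libraries, against 89 and 129 counts in the controls (2.37 and 3.56 CPM, against 6.75 and 7.46 CPM). Its log2 fold change was -1.26 (SE 0.289, adjusted p = 0.00772, edgeR). All of its exon bases, at chr1:159834495-159855237 on the minus strand, lie within exons of other genes, among them ENSG00000256029, which had 82 and 99 counts in the knockdown libraries, against 144 and 228 counts in the controls, and also fell (log2 fold change -1.04, adjusted p = 0.00854). Reads of these overlapping genes could not be told apart. SNHG31, at chr2:214810229-214963274 on the plus strand, had 18 and 5 counts in the knockdown libraries, against 30 and 33 counts in the controls. Its log2 fold change was -1.48 (SE 0.485, adjusted p = 0.0406), and it was -2.62 without knockdown 1 and -0.89 without knockdown 2, where the call was lost (adjusted p = 0.166). Without control 1 or control 2 neither SNHG28 nor SNHG31 was called.

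Of the 6 hosts of at least 100 CPM, SNHG3 and SNHG4 rose, and GAS5, SNHG1, SNHG16 and SNHG29 did not pass the test. GAS5, which accumulates in growth-arrested cells, had 187 and 176 CPM in the knockdown libraries, against 186 and 155 CPM in the controls. The groups overlapped, and the log2 fold change was 0.09 (SE 0.125, adjusted p = 0.649, edgeR). SNHG1, which holds 7 snoRNA genes with C/D names (2 of them called SNORD22), had 193 and 182 CPM in the knockdown libraries, against 191 and 156 CPM in the controls (log2 fold change 0.11, adjusted p = 0.566). SNHG16, the host of SNORD1A, SNORD1B and SNORD1C, had 162 and 152 CPM in the knockdown libraries, against 171 and 145 CPM in the controls, with the knockdown values between the control values (log2 fold change -0.01, adjusted p = 0.964). SNHG29, the host of SNORD49A, SNORD49B and SNORD65, had 147 and 162 CPM in the knockdown libraries, against 144 and 116 CPM in the controls (log2 fold change 0.25, adjusted p = 0.17). Per kb of deposited exon length, SNHG1 stood at 49.9 CPM in the knockdown and 46.3 in the control, and SNHG19, the host of SNORD60, at 48.6 CPM in the knockdown and 39.8 in the control, while SNHG6 stood at 39.1 CPM in the knockdown and 40.2 in the control; the lowest tested level was that of SNHG22, at 0.189 CPM per kb in the knockdown and 0.343 in the control.

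SNHG17 stood just outside the threshold. It holds SNORA71, SNORA71A, SNORA71B, SNORA71C and SNORA71D, and had 86.7 and 73.7 CPM in the knockdown libraries, against 66.3 and 58.4 CPM in the controls. The groups did not overlap, and the log2 fold change was 0.36 (SE 0.126, adjusted p = 0.0516, edgeR). ZFAS1, which holds SNORD12, SNORD12B and SNORD12C, had 57.4 and 56.1 CPM in the knockdown libraries, against 52.2 and 43.0 CPM in the controls (log2 fold change 0.26, SE 0.133, adjusted p = 0.179). SNHG15, the host of SNORA9, had 78.6 and 69.9 CPM in the knockdown libraries, against 67.7 and 55.4 CPM in the controls (log2 fold change 0.27, adjusted p = 0.146). In both genes the knockdown libraries lay above the controls by less than the test required.

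The other hosts of at least 20 CPM were SNHG5, SNHG6, SNHG8 and SNHG20. SNHG20, the host of SCARNA16, had 37.0 and 33.7 CPM in the knockdown libraries, against 29.3 and 28.8 CPM in the controls (log2 fold change 0.28, adjusted p = 0.171, edgeR). SNHG5, with SNORD50B, had 48.0 and 51.6 CPM in the knockdown libraries, against 45.1 and 41.9 CPM in the controls (log2 fold change 0.20, adjusted p = 0.289). SNHG8, with SNORA24, had 41.0 and 43.6 CPM in the knockdown libraries, against 39.5 and 34.1 CPM in the controls (log2 fold change 0.20, adjusted p = 0.313). In each of these the knockdown libraries lay above the controls, and none was called. SNHG6, with SNORD87, had 47.7 and 49.7 CPM in the knockdown libraries, against 54.3 and 46.1 CPM in the controls, an overlap (log2 fold change -0.04, adjusted p = 0.861).

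Below 20 CPM, 7 tested hosts were not called. SNHG10, the host of SCARNA13, had 238 and 294 counts in the knockdown libraries, against 184 and 225 counts in the controls (log2 fold change 0.36, SE 0.207, adjusted p = 0.224, edgeR). SNHG19 had 229 and 282 counts in the knockdown libraries, against 194 and 216 counts in the controls (log2 fold change 0.29, adjusted p = 0.342). The log2 fold changes of SNHG9, SNHG21, SNHG25 and SNHG30 lay between -0.18 (SNHG21) and 0.17 (SNHG30), with adjusted p-values between 0.579 and 0.839. SNHG22, the host of SCARNA17, had 6 and 9 counts in the knockdown libraries, against 9 and 19 counts in the controls, too few to tell a change from counting error (log2 fold change -0.89, SE 0.518, adjusted p = 0.233). The 4 hosts of small Cajal body RNAs, SNHG10, SNHG20, SNHG21 and SNHG22, included no called gene. SNHG14, the long imprinted transcript that carries the SNORD115 and SNORD116 clusters in neurons, had 1 and 1 counts in the knockdown libraries, against 1 and 3 counts in the controls, and was not tested; SNHG18 and SNHG27 had 0 counts in all 4 libraries, at floors of 0.182 and 0.203 CPM in the knockdown and 0.225 and 0.178 CPM in the control libraries.

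Between the control libraries, counts of abundant hosts changed less than the totals did. The total of control 2 was 1.26 times that of control 1. The median ratio of the counts was 1.31 over all genes tested, but 1.08 over the 6 hosts of at least 100 CPM and 1.202 over the other 21 tested hosts. Between the knockdown libraries, with totals of 16493967 and 14762755 counts, this did not hold for every abundant host. SNHG1 had 3088 and 2713 counts there, and SNHG29 had 2360 and 2409 counts. Fold changes of the most abundant hosts, such as SNHG1, GAS5, SNHG16 and SNHG29, may be compressed, which was not tested. These 4 had a library with more counts than 2 per base of their canonical transcript. No value could therefore be computed for them when counts were corrected for levelling off on that length. With that correction the log2 fold change of SNHG32 was 0.95, against 0.45 uncorrected. With a correction on the deposited exon length, chosen after seeing the data, it was 0.60. The latter correction gave 0.15 for SNHG1 (uncorrected 0.11), 0.11 for GAS5 (0.09), -0.01 for SNHG16 (-0.01) and 0.30 for SNHG29 (0.25). None of these 4 was called with it.

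**Figure D3:**
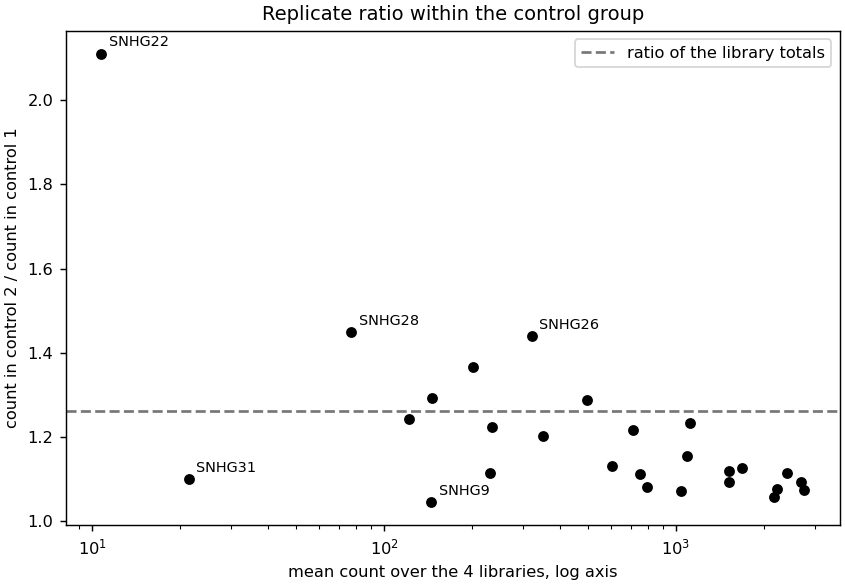
Ratio of the count in control 2 to the count in control 1 for each tested host, against the mean count over the 4 libraries on a log axis; the dashed line is the ratio of the library totals, 1.26. The hosts with the most counts lie below the line, while SNHG26 lies above it at 1.44.

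The snoRNA genes within the hosts were next looked at as a separate readout. The tables list 137 genes with SNORD, SNORA or SCARNA symbols wholly inside a host on the same strand, 84 of them inside SNHG14, and 45 had enough counts to be tested. Of these, 11 were called higher (24.4%, where 12.5% of all genes were) and 0 lower, with a median log2 fold change of 0.62 and 41 of 45 above 0. An unadjusted p under 0.05 (edgeR) was found for 20 of the 45, where 7524 of all 19686 genes tested had one. The 11 are 10 snoRNAs, since SNORA17B is listed as 2 overlapping genes that share their reads. They lie in SNHG3, SNHG7, SNHG9, SNHG12, SNHG16, SNHG19, SNHG32 and ZFAS1. Elsewhere, of 146 tested snoRNA genes, 24 were called higher (16.4%) and 0 lower, with a median of 0.52. Levels were low, with a median of 4.46 CPM and a highest mean of 13.3 CPM, and these calls depend on the tool: DESeq2's Wald test called 0 of the 44 that it gave an adjusted p, with 10 at an unadjusted p under 0.05 and a lowest adjusted p of 0.0521. With edgeR too the calls were lost without control 1 or control 2, as most calls over all genes were, and more of the 45 were called without knockdown 2.

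Depending on how the libraries were made, reads over a snoRNA gene can come from the snoRNA itself, its precursor intron or a host transcript that retains the intron. The counts do not tell these apart. Of the 45 tested genes, 31 lie at least in part inside an annotated exon of their host, so that a read there could be counted for both; 8 of these were called higher, and 24 had a log2 fold change above that of their host. The other 14 lie outside the host's exons. Of those, 3 were called higher (21.4%, where 12.5% of all genes were), and the median was 0.83. In 14 of 14 the log2 fold change was above 0 and above that of the host. The filter on low counts favoured a rise for genes with few control counts. Among the 14 these include SNORD12C (3 and 7 control counts), SNORD1B (9 and 9) and SNORA74A (9 and 9), and among the 31 SNORA78 (11 and 9). The share called, the median and the signs of the 14 are therefore a description only. Snor genes elsewhere mostly lay above 0 too, 129 of the 146 tested snoRNA genes not in a host, with a median of 0.52. SCARNA15, in SNHG21, is among the 14 although all of its bases lie in a same-strand exon of another gene.

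SNORD12C, SNORA73B and SNORD60 were the called snoRNAs outside host exons; 96.4% of the bases of SNORD60 lie in a same-strand exon of another gene, so its reads could still be counted for both. SNORD12C, in ZFAS1, had 28 and 15 counts in the knockdown libraries, against 3 and 7 counts in the controls (log2 fold change 2.06, SE 0.536, adjusted p = 0.0146, edgeR). SNORD12C passed the filter on low counts through the knockdown libraries alone. A rise was thus favoured by the filter, and the size of this change rests on few control counts. SNORA73B, in SNHG3, had 111 and 79 counts in the knockdown libraries, against 45 and 44 counts in the controls (log2 fold change 1.05, SE 0.294, adjusted p = 0.0206). SNORD60, in SNHG19, had 107 and 101 counts in the knockdown libraries, against 50 and 57 counts in the controls (log2 fold change 0.93, SE 0.263, adjusted p = 0.0217). For each, both knockdown libraries lay above both controls, while the hosts ZFAS1 and SNHG19 were not called. Without knockdown 1, the calls of SNORD12C (log2 fold change 1.58, adjusted p = 0.0885) and SNORA73B (0.83, adjusted p = 0.0512) were lost. Their sequences, with those of SNORD1C and of the paralog SNORA73A, are given from GRCh38, with TGATGA (box C) and CTGA within the last 15 bases (box D) in capitals for SNORD genes, and ACA within the last 8 bases in capitals for SNORA genes, all searched on the gene's own strand.
SNORD12C (chr20:49278940-49279028, plus strand): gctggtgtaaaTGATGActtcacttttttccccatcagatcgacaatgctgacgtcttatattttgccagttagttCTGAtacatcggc
SNORD60 (chr16:2155023-2155105, minus strand): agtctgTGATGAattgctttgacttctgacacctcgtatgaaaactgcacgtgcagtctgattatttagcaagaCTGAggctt
SNORD1C (chr17:76558791-76558868, plus strand): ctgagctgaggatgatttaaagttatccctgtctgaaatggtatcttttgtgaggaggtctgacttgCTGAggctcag
SNORA73B (chr1:28508559-28508762, plus strand): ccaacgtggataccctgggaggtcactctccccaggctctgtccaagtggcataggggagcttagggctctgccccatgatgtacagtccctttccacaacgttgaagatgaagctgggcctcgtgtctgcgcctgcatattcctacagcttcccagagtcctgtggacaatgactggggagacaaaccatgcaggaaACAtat
SNORA73A (chr1:28507366-28507571, plus strand): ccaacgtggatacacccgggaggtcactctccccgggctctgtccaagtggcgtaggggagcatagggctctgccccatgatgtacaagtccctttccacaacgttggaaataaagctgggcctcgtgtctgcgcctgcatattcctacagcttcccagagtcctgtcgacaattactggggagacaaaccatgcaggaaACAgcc
TGATGA was present in 73.9% of 314 annotated SNORD genes, CTGA near the end in 87.3%, and ACA near the end in 82.2% of 214 SNORA genes. SNORA73A and SNORA73B are identical at 93.2% of aligned positions, so reads could be split between them.

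Inside host exons, SNORD1C in SNHG16 had the largest change. It had 51 and 35 counts in the knockdown libraries, against 10 and 16 counts in the controls (log2 fold change 1.70, SE 0.385, adjusted p = 0.00739, edgeR), while SNHG16 itself stood at -0.01. SNORA78 in SNHG9, whose host also did not pass the test, had 25 and 26 counts in the knockdown libraries, against 11 and 9 counts in the controls (log2 fold change 1.31, SE 0.433, adjusted p = 0.0427, and 0.0988 without knockdown 2). SNORA17B in SNHG7 had 90 and 80 counts in the knockdown libraries, against 37 and 40 counts in the controls (log2 fold change 1.11, adjusted p = 0.0139). SNORA73A in SNHG3, SNORD52 and SNORD48 in SNHG32 and SNORA44 in SNHG12 had log2 fold changes of 0.89, 0.83, 0.74 and 0.81, in each case above that of a host that itself rose. Their adjusted p-values (edgeR) were 0.0308, 0.0248, 0.047 and 0.0449. The calls were lost in 4 of 14, 4 of 12, 6 of 12 and 6 of 14 alternatives, in the same order. SNORD52 and SNORD48 each had a library with more counts than 2 per base. Without knockdown 1, SNORA44 was not called (adjusted p = 0.0623). SNORD22, SNORD25, SNORD26, SNORD27, SNORD28 and SNORD30 of SNHG1 had log2 fold changes between -0.18 and 0.54, and none was called. The snoRNAs of GAS5 were not analysed here.

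**Figure D4:**
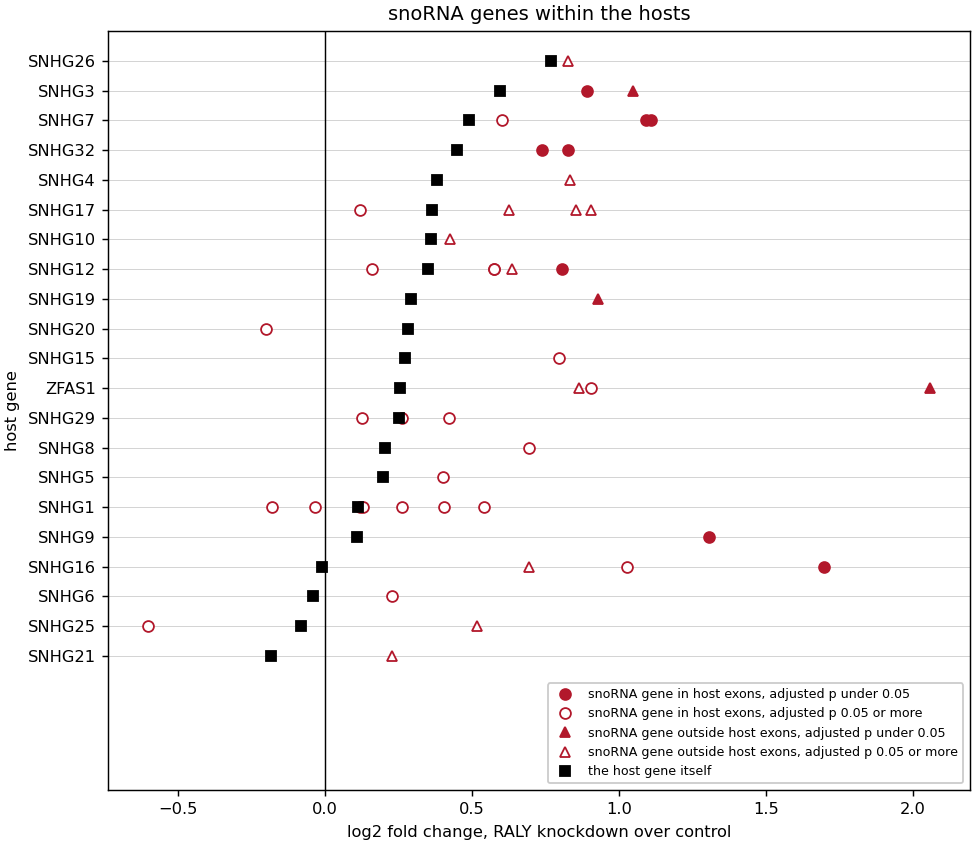
Log2 fold change of RALY knockdown over control for the tested snoRNA genes, 1 row per host, with circles for snoRNA genes inside host exons and triangles for those outside; filled symbols have an adjusted p under 0.05 and black squares are the hosts. Most symbols lie right of their host's square, with SNORD12C in ZFAS1 farthest at 2.06 and SNORD1C in SNHG16 at 1.70. SNORD12C passed the filter on low counts through the knockdown libraries alone.

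Several hosts share a start region with a protein-coding gene on the opposite strand, starting within 1 kb. ZBTB37, a zinc finger gene that starts 800 bases from GAS5, had 3561 and 2094 counts in the knockdown libraries, against 732 and 1044 counts in the controls. It was 3.13-fold higher (log2 fold change 1.65, SE 0.178, adjusted p = 9.03e-05, edgeR), beside 0.09 for GAS5. ZNFX1, which encodes a helicase-like zinc finger protein and starts 248 bases from ZFAS1, had 3280 and 2737 counts in the knockdown libraries, against 1307 and 1738 counts in the controls (log2 fold change 0.96, SE 0.114, adjusted p = 0.0001725), beside 0.26 for ZFAS1. ZNFX1 covers 11.1% of the exon bases of ZFAS1, on the opposite strand. Both neighbours thus rose where the host did not pass the test; the differences between neighbour and host were not tested. The other tested neighbours were not called: BARD1 beside SNHG31 had a log2 fold change of 0.12, SLC3A2 beside SNHG1 of -0.04, RPS2 beside SNHG9 of 0.15, TRAF7 beside SNHG19 of -0.29 and ACAA2 beside SNHG22 of 0.07. SEMA5A, beside SNHG18, had too few counts to be tested.

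The genes that work with these hosts were read from lists. The other noncoding hosts, EPB41L4A-AS1 and DANCR, had log2 fold changes of 0.35 and 0.33 and did not pass the test (adjusted p = 0.067 and 0.0806, edgeR). Of 21 proteins that form or assemble snoRNPs, 3 rose (14.3%, near the 12.5% of all genes called higher) and 0 fell. The 3 were ZNHIT6 (log2 fold change 0.47) and NUFIP1 (0.47), both assembly factors of box C/D snoRNPs, and COIL (0.38), the scaffold of Cajal bodies. An unadjusted p under 0.05 (edgeR) was found for 5 of the 21, where 7524 of all 19686 genes tested had one. The core box C/D and H/ACA proteins on that list were not called. Of 23 factors of nonsense-mediated decay, 2 rose (8.70%) and 1 fell (4.35%), shares below the 12.5% and 13.1% of all genes called higher and lower. SMG1, the kinase that phosphorylates UPF1, rose (log2 fold change 0.64), as did RNPS1 (0.39), a splicing protein found with the exon junction complex, while UPF1, the central helicase of that decay, fell (-0.44). Without control 1 or control 2 none of the genes called on these lists was called; without knockdown 1 neither SMG1 nor RNPS1 was, and without knockdown 2 UPF1 was not.

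Protein-coding genes with similar starts or introns were read in the same way. Of 79 tested ribosomal protein genes, whose messenger RNAs also start with oligopyrimidine tracts, 2 rose, RPL22 (log2 fold change 0.43) among them, and 0 fell; this is 2.53%, where 12.5% of all genes were called higher, with a median of 0.15. On counts corrected for levelling off by canonical transcript length, 16 of the 79 were called higher, where 2365 of all 19686 genes tested were. Genes with more counts than 2 per base of that transcript, RPS2 among them, stayed in this fit at a capped value. Of 18 translation factors and regulators of such messenger RNAs, EEF1D alone was called, at 0.81 (5.56%, below the 12.5% of all genes called higher). Exons on the opposite strand cover 70.9% of the exon bases of EEF1D. It also had a library with more counts than 2 per base of its canonical transcript. Of 164 tested protein-coding genes that hold a snoRNA gene, 14 rose (8.54%) and 9 fell (5.49%), with a median of 0.09. On the corrected counts 26 rose, beside the same 2365 of all genes, and fewer rose without control 1 or control 2. Among the 164, PHLPP2, a phosphatase of AKT, rose by 1.13, DNAJC16 by 0.87, AAK1 by 0.84 and RAB30 by 0.93 on the log2 scale. ZBED3 (-1.59) and AP1B1 (-0.71) fell. No test of the difference between lists was made.

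**Figure D5:**
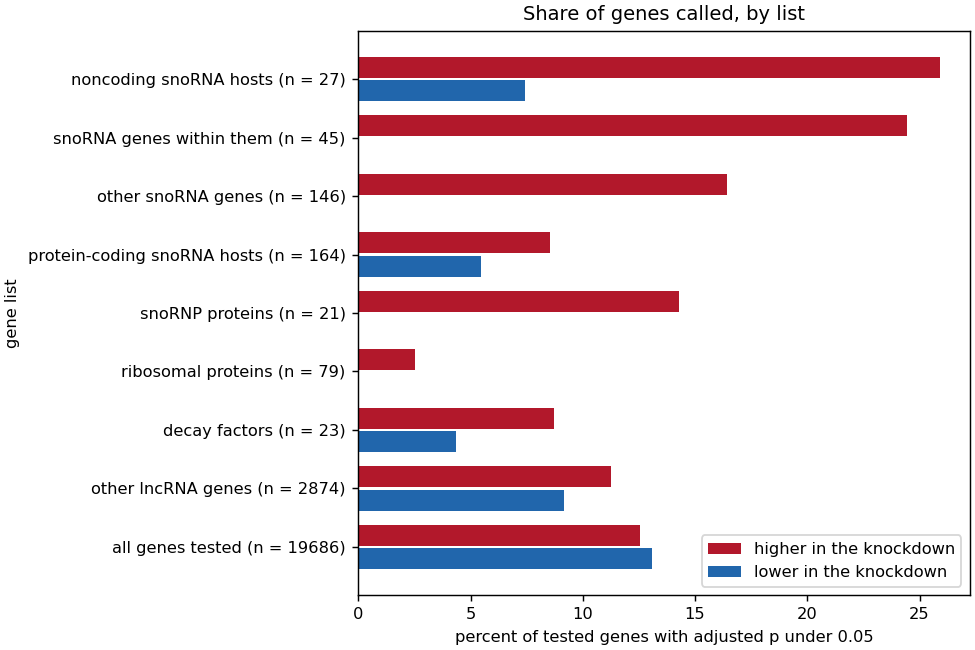
Percent of tested genes called higher (red) or lower (blue) in the RALY knockdown, for each list, with the number tested beside its name and all 19686 genes at the bottom. The noncoding hosts have 25.9% called higher, against 8.54% of protein-coding hosts and 12.5% of all genes.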

How the data were processed

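RNA was sequenced from 2 RALY knockdown and 2 control libraries of HCT116 cells, grouped by sample title. The deposited values are whole-number read counts per gene, 1 table per library, laid out as featureCounts does, per the file headers. The submitters' processing notes name HISAT2 2.0.4, SAMtools, featureCounts, Subread and build GRCh38; the sources used here do not give strand use or the treatment of reads over shared bases. Of 723 single-exon genes lying wholly in same-strand exons of other genes, 550 had a count, so reads over shared bases were counted for more than 1 gene.

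Of 58884 gene IDs, 58472 were found in GENCODE 44, which gave symbols and biotypes. Gene coordinates are the deposited ones (GRCh38), counted from 1. Promoter sequences are from RefSeq. All 4 libraries were fitted with edgeR 4.0.16 under R 4.3.3: filterByExpr left 19686 genes, totals were scaled by TMM, and a robust quasi-likelihood F test compared the groups, with Benjamini-Hochberg adjustment over all genes tested and calls at an adjusted p under 0.05. Log2 fold changes are knockdown over control, and SE is that of the fit. Floors cover counting error only. DESeq2 1.42.0, other scalings and filters, a replicate block, a minimum fold of 1.2, counts corrected for levelling off and leaving out each library were tried. Chi-square divided by its degrees of freedom was 9.32 between the knockdown and 5.1 between the control libraries, above counting noise.

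The genes and lists were chosen with earlier results of these data known. The text names every host (in full where called or at a mean of at least 20 CPM), the called genes of each list with the smallest p (at most 4 in the commoner direction and 2 in the rarer one), and protein-coding neighbours starting within 1 kb on the opposite strand. snoRNA genes are named by their calls, chosen after seeing the values. Of the genes so chosen, 1 is not reported here.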

Additional observations from a re-analysis of the deposited data

How the results depend on the processing

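The direction of the median log2 fold change of the hosts held in every alternative run, between 0.12 and 0.28. A minimum fold of 1.2 left 1480 genes called higher and 1604 lower, 2 hosts higher, 1 lower and 6 snoRNA genes within hosts higher. Leaving out each library in turn gave 340 to 2908 genes called higher, 508 to 3351 lower, 0 to 9 hosts higher, 0 to 2 lower and 0 to 18 snoRNA genes higher; the low ends came without a control. DESeq2's Wald test called 1 host lower and 0 snoRNA genes higher, the counts corrected for levelling off on the canonical transcript left 1 host lower, and so did keeping only hosts that share at most 20% of their exon bases. Keeping only snoRNA genes outside host exons, chosen after seeing the data, left 3 higher. The cause was not tested. Signs turned for genes near 0: leaving out each library in turn, the log2 fold change ran between -0.04 and 0.2248 for SNHG1, -0.0502 and 0.1885 for GAS5, -0.0643 and 0.2387 for SNHG9 (each below 0 without control 2), between -0.1366 and 0.0718 for SNHG16 and -0.1697 and 0.0435 for SNHG6 (each above 0 without control 1), and between -0.3488 and 0.5258 for SNHG30 (below 0 without knockdown 2). SNHG16 also stood at 0.0283 without knockdown 2. The correction on the deposited exon length was also added after seeing the data. SNHG12 was not called by DESeq2 or without the filter on low counts, and SNHG17 was called in 5 of 14 alternatives.

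The replicate numbers are shared between groups, but no label says that they pair libraries. Across tested genes, the replicate 1 minus 2 difference in the knockdown had a correlation of 0.2319 with that in the control. With 2 pairs, this value cannot settle whether same-numbered libraries belong together. With a replicate block, 3518 genes were called higher and 3536 lower, 8 hosts higher (SNHG17 added) and 2 lower, and 19 snoRNA genes within hosts higher. Depth limits the scarce hosts: SNHG22 and SNHG31 had at most 33 counts in a library.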
